A study of Mus musculus with 14 samples.

Results

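A set of 10 genes known as regulators or surface markers of blood stem cells was examined for binding of 13 transcription factors in a mouse progenitor line: Mecom, Prdm16, Hlf, Mllt3, Mn1, Msi2, Procr, Cd34, Slamf1 and Angpt1. The rule named them and set no peak criterion, but they were chosen with earlier results of these data known. They are 10 of 21631 protein-coding genes on the 19 autosomes and chromosome X. For each gene, every peak was taken whose midpoint on mm10 fell between 50 kb below and 50 kb above its boundaries, and this span is called the locus. Touching peaks of any of the 13 factors, and those that overlapped by at least 1 bp, were joined into merged regions. The 10 loci held 590 of 279955 peaks and 225 of 121980 merged regions.

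The cells were Hoxb8-FL, a mouse line of multipotent haematopoietic progenitors that the labels describe as LMPP-like, meaning akin to lymphoid-primed multipotent progenitors. They were grown with estradiol, which keeps the conditional Hoxb8 protein of such lines active, and with FLT3, and were not treated further. Chromatin was fixed with formaldehyde at 0.4% or 1% and each factor was precipitated with its own antibody in 1 library: the C/EBP factors Cebpa and Cebpb, the ETS factors Erg, Fli1 and Spi1 (PU.1), the zinc finger factors Gata2, Gfi1 and Gfi1b, the helix-loop-helix factors Tal1 and Lyl1 with their bridging partner Lmo2, the homeobox factor Meis1, and Runx1. A rabbit IgG library was not analysed here. The lists give the position of each peak, always 400 bp wide, with no height or read count, so depth is unknown and the longer list of Spi1 (76378 peaks) cannot be read as more binding than that of Gata2 (3217 peaks). As each factor had 1 library, no value carries an error between replicates and nothing was tested. The libraries carry no expression values, so the labelled cell type could not be checked by its markers.

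Blood stem cells maintain themselves through nuclear regulators that hold a stem cell programme and are recognised by proteins on their surface. Mecom (which encodes Evi1), its relative Prdm16 and the basic leucine zipper factor Hlf are DNA-binding regulators needed for the stem cell pool in mice, whereas Mllt3 (AF9) reads acylated histones for the elongation machinery, Mn1 is a transcriptional co-regulator known from leukaemia fusions, and Msi2 binds RNA. Procr (EPCR) and Slamf1 (CD150) mark mouse stem cells on their surface, Cd34 is low on the most primitive mouse stem cells and high on multipotent progenitors, and Angpt1 is the secreted ligand of the stem cell receptor Tek. Transcription factors bind such genes at promoters and at distant enhancers, where several of them often meet close together.

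Promoter windows from RefSeq (GRCm38.p6, 250 bases before to 50 after a start site) were found for 8 of the 10 genes. The 4 printed here are those in which a peak centre lay within 250 bases of the start site, so that they show where binding reached the promoter itself. Mn1 and Angpt1 had no entry in the table. Capitals mark matches, on either strand, to any of 7 short motifs: GGAAG for ETS factors, TGTGGT for Runx, TTGCNNAA for C/EBP, AGATAA for Gata, the E-box CANNTG for helix-loop-helix factors, TGACAG for Meis and AAATCA for Gfi. No 2 of these matches overlapped in the printed windows.
Mllt3 promoter, chr4:88033358-88033657, minus strand: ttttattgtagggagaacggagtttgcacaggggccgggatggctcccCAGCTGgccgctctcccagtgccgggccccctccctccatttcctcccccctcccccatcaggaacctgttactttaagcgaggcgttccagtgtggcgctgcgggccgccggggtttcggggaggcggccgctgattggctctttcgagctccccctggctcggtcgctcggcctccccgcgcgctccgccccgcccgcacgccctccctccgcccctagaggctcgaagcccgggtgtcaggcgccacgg
Hlf promoter, chr11:90390868-90391167, minus strand: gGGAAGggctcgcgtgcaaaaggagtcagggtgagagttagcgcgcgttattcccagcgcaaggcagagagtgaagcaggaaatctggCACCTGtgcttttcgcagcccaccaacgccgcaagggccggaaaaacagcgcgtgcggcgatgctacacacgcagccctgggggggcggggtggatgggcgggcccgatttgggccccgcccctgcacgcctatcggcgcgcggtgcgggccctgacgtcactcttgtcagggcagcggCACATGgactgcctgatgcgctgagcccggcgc
Cd34 promoter, chr1:194938571-194938870, plus strand: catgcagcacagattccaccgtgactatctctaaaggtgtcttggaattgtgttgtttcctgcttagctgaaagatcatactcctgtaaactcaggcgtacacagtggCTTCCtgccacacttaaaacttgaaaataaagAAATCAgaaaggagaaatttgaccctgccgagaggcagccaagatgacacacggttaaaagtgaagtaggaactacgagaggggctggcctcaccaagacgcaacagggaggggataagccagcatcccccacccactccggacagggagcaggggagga
Slamf1 promoter, chr1:171766882-171767181, plus strand: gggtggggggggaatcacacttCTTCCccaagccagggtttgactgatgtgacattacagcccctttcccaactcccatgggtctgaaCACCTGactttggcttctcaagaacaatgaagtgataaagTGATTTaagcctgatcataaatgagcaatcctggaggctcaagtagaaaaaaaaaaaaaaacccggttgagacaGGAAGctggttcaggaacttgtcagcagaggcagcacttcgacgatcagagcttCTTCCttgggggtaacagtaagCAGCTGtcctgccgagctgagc

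A match is a description of letters and not a site, and no match says only that these letters are not in the window. Over 32851 promoter windows of the same length, 71.4% held the ETS letters, 72.3% an E-box, 19.2% the Meis letters, 16.8% the Runx letters, 14.0% the Gfi letters, 11.2% the Gata letters and 10.8% the C/EBP letters. The Slamf1 window, with a Spi1 peak, held 3 matches to the ETS letters, counted from 0 at the start base at -228 to -224, -48 to -44 and 6 to 10. The Mllt3 window, with peaks of the ETS factors Fli1 and Erg and of Runx1, held neither the ETS nor the Runx letters, and its only match was an E-box at -202 to -197. The capitals in the Hlf window are 1 ETS match and 2 E-boxes, and those in the Cd34 window are 1 ETS and 1 Gfi match. The Cd34 window, most of it under a Cebpb peak, held no match to the C/EBP letters, and the Hlf window, under a Gfi1 peak, held none to the Gfi letters.

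Taken over the whole loci, the 10 genes fell into 8 with many factors and 2 with few. The 2 were Mecom with 5 factors and Prdm16 with 3. Such low counts were common, as 30.6% of all protein-coding genes had 5 or fewer. Among the genes with loci over 200 kb, 23.0% had as few factors as Mecom or fewer, and 14.3% as few as Prdm16 or fewer. Of 130 combinations of factor and gene 103 had a peak in the locus. Of the 27 without, 18 were at Mecom and Prdm16, and 7 of the 9 at the other 8 genes were those of Gata2. At 8 of 10 genes 11 or more of the 13 factors had a peak, against 33.2% of all protein-coding genes. This count depended on the 50 kb either side. With 10 kb either side Mn1 had 9 factors, Procr 8, Hlf 7 and Slamf1 2, whereas Msi2, Mllt3, Cd34 and Angpt1 kept 11 or more. The share of all genes was not computed with 10 kb. With 50 kb either side, the median was 12 factors per locus for the 10 genes and 9 for all genes. Long loci can hold more peaks by length alone, so the 2427 genes with loci over 200 kb were used as a second background. Their median was 10 factors, 45.9% of them had 11 or more, and so did 3 of the 5 long loci among the 10 genes (Msi2, Mllt3 and Angpt1).

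Spi1 and Meis1 were the factors with a peak at each of the 10 genes. For Spi1 this stands against 84.7% of all genes, so it sits close to the background. For Meis1 it stands against 50.6% of all genes, and against 77.9% of the genes with long loci, to which 5 of the 10 genes belong. Tal1 and Lmo2 each had a peak at 9 of 10 genes, against 56.8% of all genes for Tal1 and 69.0% for Lmo2. Cebpa and Cebpb also reached 9 of 10, against 74.3% for Cebpa and 75.5% for Cebpb. Lyl1 had peaks at 8 of 10 genes against 40.5% of all genes, Gfi1 at 8 of 10 against 49.1%, Runx1 at 8 of 10 against 56.8%, and Fli1 at 8 of 10 against 69.7%. Erg had peaks at 7 of 10 genes against 51.7%, and Gfi1b at 7 of 10 against 46.5%. Gata2 had a peak at 1 of 10 genes, Msi2, against 23.2% of all genes. For these factors too the share was higher among long loci, for instance 74.6% for Tal1, 53.0% for Lyl1 and 33.1% for Gata2. Of the 5 genes with long loci, Spi1 and Meis1 had a peak at all 5, and Cebpa, Cebpb, Lmo2 and Tal1 at 4. Erg, Fli1, Gfi1, Lyl1 and Runx1 had a peak at 3 of them, Gfi1b at 2 and Gata2 at 1. The remaining long-locus shares were 95.6% for Spi1, 84.6% for Cebpb, 83.1% for Cebpa, 74.9% for Lmo2 and 74.1% for Fli1. They were 59.7% for Runx1, 57.5% for Gfi1, 55.7% for Gfi1b and 54.2% for Erg. The 5 genes lay below the long-locus share for Cebpa, Cebpb, Fli1, Gfi1b and Gata2, and above it for the other factors. With only 5 genes, most of these counts were as close to the share as whole genes allow. Examples are 3 of 5 for Runx1 against 59.7% and 4 of 5 for Cebpa against 83.1%. The side on which a factor fell thus says little, and it was not tested.

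**Figure D1:**
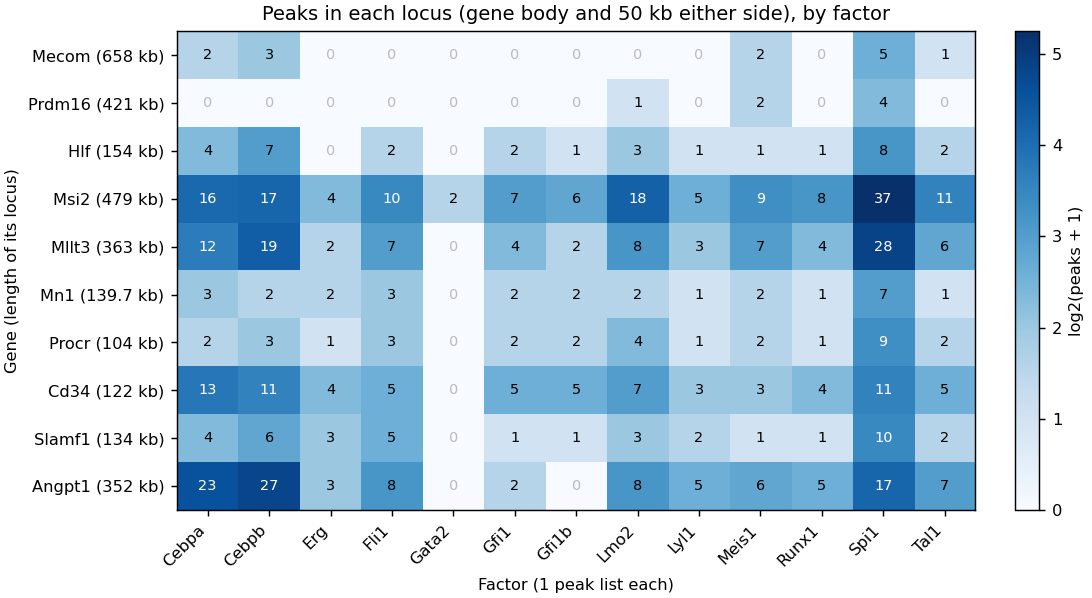
Number of peaks of each of the 13 factors (columns) in each gene's locus (rows), 1 library per factor. The rows of Mecom and Prdm16 are mostly 0, the Gata2 column holds its 2 peaks at Msi2 alone, and Spi1 reaches 37 peaks at Msi2.

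**Figure D2:**
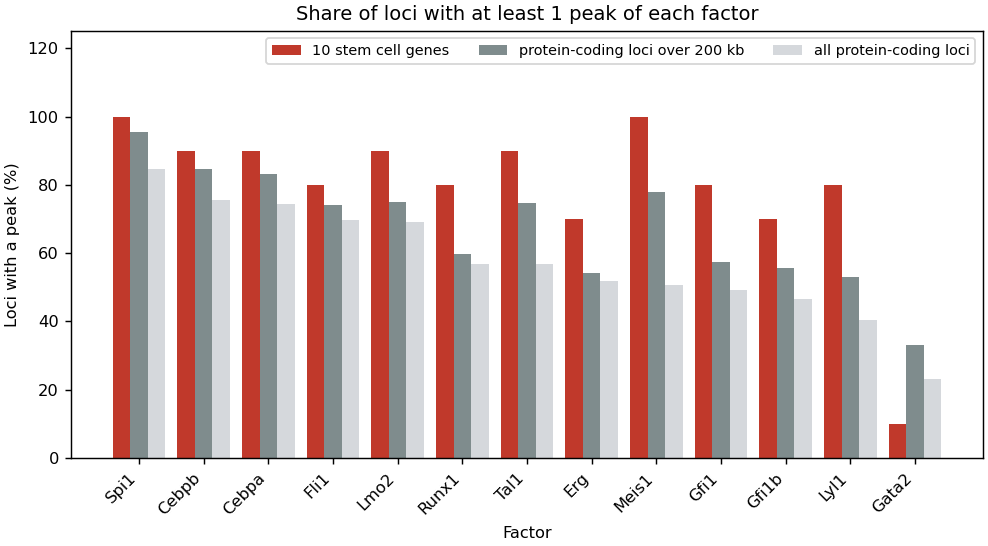
Share of genes with at least 1 peak of each factor in the locus, in percent. The left bar of each group is for the 10 stem cell genes. The middle bar is for the genes with loci over 200 kb, and the right bar for all 21631 protein-coding genes. Spi1 and Meis1 stand at all 10 genes, and Gata2 is the factor whose share is below that of all genes.

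Corrected for length, the 10 loci had a median of 28.6 peaks of the 13 factors per 100 kb. The median was 15.8 over all genes (quartiles 4.47 and 29.5) and 10.8 over the long loci (quartiles 3.63 and 21.2). The value of 28.6 thus lay within the quartiles of all genes. It lay above the upper quartile of the long loci, but only 5 of the 10 genes have long loci. Pooled over the 10 loci, the density was 20.1 peaks per 100 kb. Cd34 was the densest with 62.1 peaks per 100 kb, a value that 2.92% of all loci reached. Angpt1 (31.5), Msi2 (31.3), Procr (30.7), Slamf1 (29.1) and Mllt3 (28.1) formed a middle group, followed by Hlf (20.7) and Mn1 (20). Mecom had 1.97 and Prdm16 1.66 peaks per 100 kb, far below the other 8. Peaks of different factors at the same site are not independent, so these densities carry no error.

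**Figure D3:**
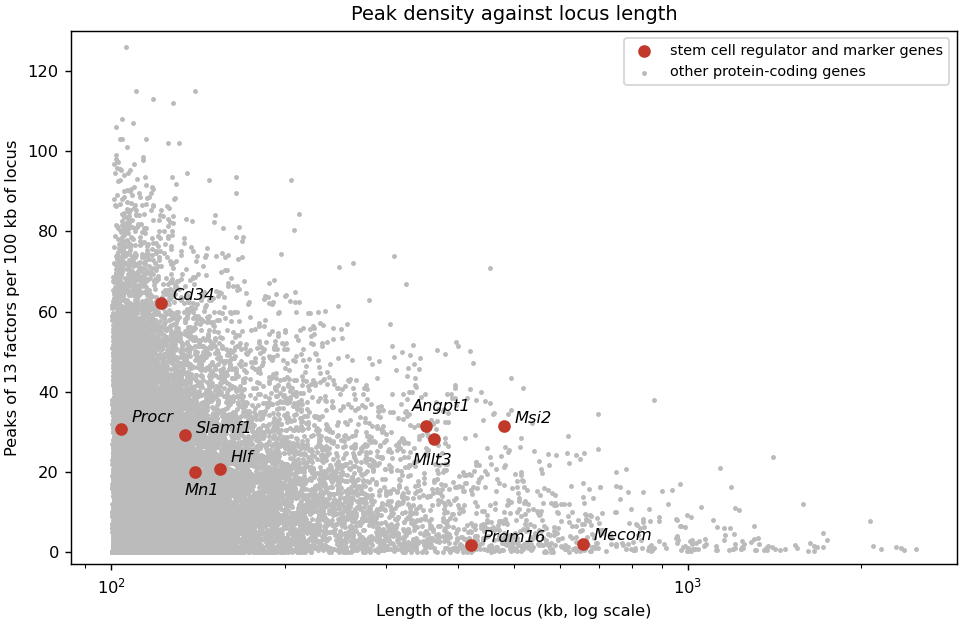
Peaks of the 13 factors per 100 kb against the length of the locus in kb, with the 10 stem cell genes in red over all protein-coding genes. Cd34 stands at 62.1, Mecom at 1.97 and Prdm16 at 1.66 peaks per 100 kb.

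Among the DNA-binding regulators, Mecom (chromosome 3, 29951296 to 30509759, minus strand, 558 kb) had 13 peaks of 5 factors in 11 merged regions over a locus of 658 kb. Spi1 had 5 peaks, Cebpb 3, Cebpa 2, Meis1 2 and Tal1 1. Of these regions 9 held 1 factor, and the other 2 were pairs of Cebpa and Cebpb deep in the gene body, at 30105504 to 30105907 and 30294426 to 30294853. The peak nearest to the start site at the upper boundary was a Spi1 peak 1.42 kb upstream, a Spi1 peak at -70.3 kb, on the upstream side, was nearest to the second start site, and the only Tal1 peak lay 44.4 kb above the gene. A stretch of 182 kb, from the lower edge of the locus to 132 kb into the gene, held no peak at all. The nearest region with 5 or more factors was 92.8 kb above the gene, inside Mynn, and the nearest with 10 or more was 552 kb away, near Prkci. Among the 2427 long loci 16.4% were as sparse as Mecom or sparser.

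Prdm16 (chromosome 4, 154316122 to 154637360, minus strand, 321 kb) had 7 peaks of 3 factors, each in a region of its own: 4 of Spi1, 2 of Meis1 and 1 of Lmo2. No factor shared a site with another anywhere in its 421 kb, and C/EBP, Runx1, Tal1 and the ETS factors other than Spi1 were among the 10 factors without a peak. The peak nearest to the start site was that of Lmo2, 38.9 kb upstream. The Meis1 peak at 154297761 to 154298160 lay 18.2 kb below the gene, inside the neighbour Arhgef16. As sparse or sparser were 14.1% of the long loci. An empty stretch means that no peak stands in these lists, and without read depth it was not detectable whether weaker binding was there.

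Hlf (chromosome 11, 90336535 to 90390917, minus strand) had 32 peaks of 11 factors in 13 regions, with Erg and Gata2 absent. Its start site carried a Gfi1 peak centred 138 bp upstream, which covered the whole printed promoter window, and Cebpb and Cebpa peaks centred 220 and 248 bp downstream that covered 30 and 2 bases of it. A cluster of Cebpa, Gfi1, Gfi1b, Lmo2 and Meis1, without Spi1, stood inside the gene at 90384826 to 90385409, 5.73 kb below the upper boundary where transcription starts. The most shared region, with 7 factors (Cebpb, Fli1, Lmo2, Lyl1, Runx1, Spi1 and Tal1) at 90286389 to 90286984, lay 49.8 kb below Hlf at the edge of the locus and only 8.13 kb from Mmd. A region with 5 factors stood 29.0 kb above the gene. No region of the Hlf locus held 10 or more factors, and the nearest such region was 87.4 kb away.

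The co-regulators Mllt3 and Mn1 had 12 factors each, all but Gata2. Mllt3 (chromosome 4, 87769925 to 88033407, minus strand) had 102 peaks in 44 regions, and 37 of these lay inside the gene body. Among the 8 genes with start sites in the promoter table, Mllt3 was the one where Runx1 and ETS factors met at a start site: Runx1 was centred 15 bp, Fli1 40 bp and Erg 105 bp upstream, and a Cebpb peak followed 834 bp upstream. Spi1, the ETS factor with 28 peaks elsewhere in the locus, had none within 1 kb of that start. The most shared region, 87858965 to 87859837, held 10 factors and lacked Spi1 as well as Erg and Gata2. Regions with 9 factors stood at 87830915 to 87831350 and 87883378 to 87883883 and a region with 8 at 87953628 to 87954177, all inside the gene.

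Mn1 (chromosome 5, 111417300 to 111457030) had 28 peaks in 11 regions. The largest meetings were inside the gene: 8 factors (Cebpa, Cebpb, Erg, Fli1, Lmo2, Lyl1, Spi1 and Tal1) at 111432764 to 111433269 and 6 at 111440147 to 111440658. The related repressors Gfi1 and Gfi1b were not in either region. Their peaks stood together with Meis1, and with no other factor, at 111495484 to 111495971 and 111502751 to 111503255, 38.7 and 46.0 kb above the gene. No peak lay within 1 kb of either boundary, and the nearest region with 10 or more factors, 52.3 kb above Mn1, was just outside the locus.

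Msi2 (chromosome 11, 88339382 to 88718306, minus strand) was the one gene of the 10 with all 13 factors, with 150 peaks in 50 regions. Spi1 gave 37 of the peaks and stood alone in 23 regions. Regions with 5 or more factors were concentrated in part of the gene body, where 10 of them lay between 171 and 293 kb from the lower boundary, and 3 more lay below the gene. A stretch of 70.6 kb, between 75.1 and 146 kb from the lower boundary, held no peak. The start sites were without a peak, the nearest being Spi1 10.4 kb upstream. Among the long loci 88.3% were as dense as Msi2 or less dense.

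The region with all 13 factors, chr11:88608093-88609179, lay inside Msi2, 109 kb downstream of the start site. It was 1087 bp wide and not a single point of binding: the midpoints of 10 factors fell within 197 bp of each other, whereas those of Cebpb, Cebpa and Gata2 lay 525, 511 and 374 bp below the median. Regions with 9 factors stood 275 and 293 kb from the lower boundary, on the upper side of it. The other region with 10 or more factors, 88313377 to 88314060 with 11, lay 25.6 kb below Msi2 and nearer to Ccdc182, at 18.5 kb. The second Gata2 peak of the locus, at 88390577 to 88390976, overlapped no other factor.

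**Figure D4:**
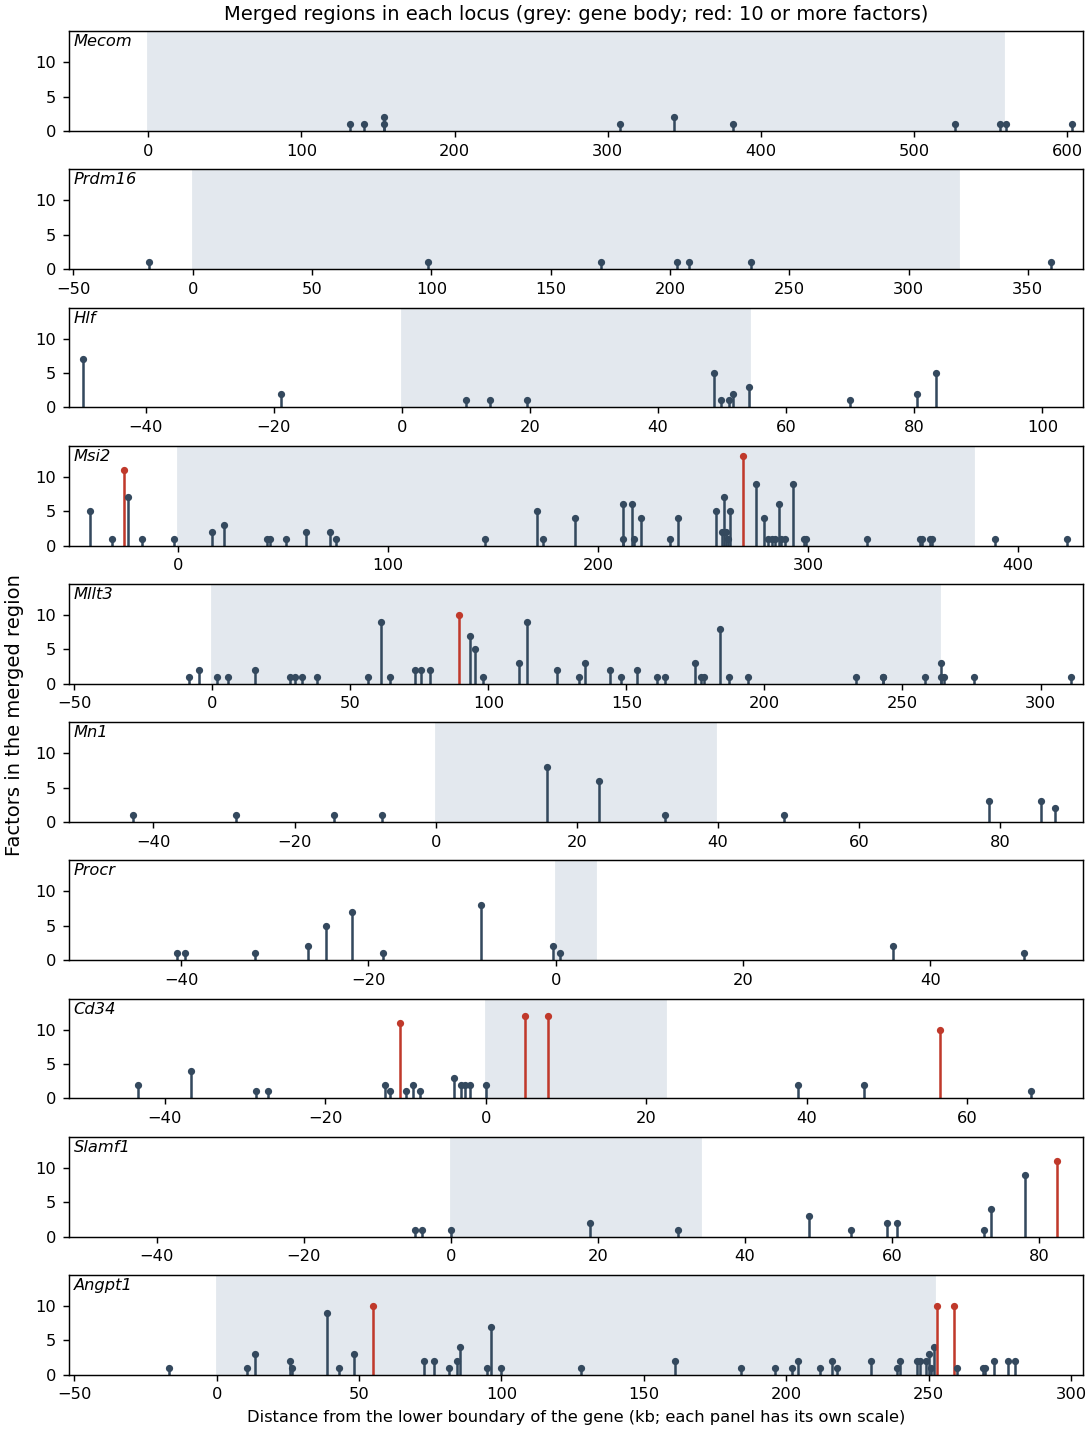
Maps of the 10 loci, with distance from the lower gene boundary in kb along each axis and the number of factors in each merged region as its height, with the gene body marked. Regions of 10 or more factors stand at Cd34, Angpt1, Msi2, Mllt3 and Slamf1, and the maps of Mecom and Prdm16 reach no more than 2 factors and 1 factor.

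Of the surface markers, Cd34 (chromosome 1, 194938821 to 194961292, plus strand) had 76 peaks of 12 factors in 21 regions of a 122 kb locus, and 15 of the regions held 2 or more factors. It had 4 of the 11 regions with 10 or more factors. Of these, 2 lay early in the gene body, at 194943399 to 194943946 and 194946276 to 194946875, which is 4.88 and 7.80 kb from the start. Both held the same 12 factors, all but Gata2, and were 2.33 kb apart. In the first, 9 of the 12 midpoints fell within 42 bp, the smallest window holding 9 midpoints in any of the 11 regions. Its 12 midpoints together spanned 148 bp, more than the 114 bp spanned by the 11 midpoints of the Slamf1 region. The third, with 11 factors, stood 10.7 kb upstream of the gene, and the last, with 10, stood 34.1 kb above its upper boundary over the long non-coding RNA Gm32250.

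At the Cd34 start site itself only Cebpb and Lmo2 had peaks, centred 45 bp upstream and 38 bp downstream, which is 2 factors where the regions 4.88 kb downstream and 10.7 kb upstream held 12 and 11. Pairs of Cebpa and Cebpb with no other factor stood 2.0 and 2.6 kb upstream. Counted over the locus, C/EBP gave 24 of the 76 peaks. Beyond the region at 7.80 kb there was no peak for 31.0 kb, so the rest of the gene body was empty.

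Procr (chromosome 2, 155751125 to 155755478, plus strand, 4.35 kb) is a short gene, and 11 of the 12 regions of its locus lay outside it. The locus had 32 peaks of 12 factors, all but Gata2. The related repressors Gfi1 and Gfi1b had peaks centred 383 and 434 bp upstream of its start site, and a Spi1 peak was centred 399 bp downstream. The most shared region, 155742895 to 155743727, held 8 factors and lay 7.95 kb upstream. It again had Gfi1 and Gfi1b, with Fli1, Lmo2, Lyl1, Meis1, Spi1 and Tal1, and had neither C/EBP factor nor Runx1. C/EBP peaks occurred farther off, in the regions with 7 and 5 factors at 155729205 to 155729708 and 155726350 to 155726812 that lie inside Edem2, and alone at 155732558 to 155732957. No region of the locus held 10 or more factors, and the nearest was 739.7 kb away.

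Slamf1 (chromosome 1, 171767131 to 171801184, plus strand) had 39 peaks of 12 factors, but 6 of the 7 regions shared by 2 or more factors lay outside the gene. Its gene body and the 10 kb on either side held peaks of 2 factors, Spi1 and Fli1. Spi1 alone stood at the start site, centred 21 bp upstream, and alone again 3.86 and 4.85 kb upstream. In the gene, Spi1 met Fli1 at 171785849 to 171786317. The regions with 11 factors, at 171849460 to 171849973, and with 9, at 171844985 to 171845804, lay inside the neighbouring SLAM family gene Cd84, 48.5 and 44.1 kb above Slamf1. Of the 13 regions 6 were nearest to Slamf1, and these held 3 factors in all.

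Angpt1 (chromosome 15, 42424667 to 42676977), the ligand, had 111 peaks of 11 factors in 43 regions, with Gata2 and Gfi1b absent. All 43 regions were nearest to Angpt1. C/EBP peaks made up 50 of the 111 peaks, 45% (exact 95% interval 35.6 to 54.8), against 26.0% of all peaks in the lists. Regions with C/EBP and no other factor were 22 of 43, 51.2% (35.5 to 66.7), against 15.2% of all merged regions. Angpt1 had the highest such share of the 10 loci, and the interval does not cover that choice. Cd34 (28.6%) and Mecom (27.3%) came next, and the 10 loci together had 22.7%. At Msi2 such regions were 3 of 50, 6% (1.25 to 16.5), although its locus had more peaks in all. At Prdm16 they were 0 of 7, with an exact interval up to 41.0%. These intervals cover counting error only. Cebpa and Cebpb peaks at a shared site were counted separately among the peaks. Such peaks are not independent, so the interval for the share of peaks may be too narrow. Regions of the same locus may not be independent either, which the intervals for regions do not cover.

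Angpt1 had 3 regions with 10 or more factors, and all 3 held the same 10: Cebpa, Cebpb, Erg, Fli1, Lmo2, Lyl1, Meis1, Runx1, Spi1 and Tal1, without Gata2, Gfi1 or Gfi1b. They stood inside the gene at 42479396 to 42479930, 0.579 kb above the upper boundary at 42677312 to 42677840, and 6.96 kb above it at 42683573 to 42684165. The upper boundary was also straddled by a separate region of Fli1, Gfi1, Runx1 and Tal1 at 42676567 to 42677014, so that 11 factors had a peak within 1 kb of that boundary and none within 1 kb of the lower. The strand of Angpt1 was not used here.

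Over the 10 loci, 117 of 225 regions held 1 factor. Spi1 alone made up 78 regions, 34.7% of the 225, against 36.6% of all merged regions, and without the Spi1 list 147 regions were left. Regions with 2 or more factors were 48.0% (exact 95% interval 41.3 to 54.7), against 43.7% of all merged regions, and regions with 5 or more were 16.9% (12.2 to 22.4), against 12.9%, so that both shares lay close to the background. Regions with 10 or more factors were 11, or 4.89% (2.47 to 8.58), against 2.32% of all merged regions. Cd34 held 4 of these and Angpt1 3. Regions of 1 locus may not be independent, which the interval does not cover, and the difference was not tested. Without the Spi1 list 7 such regions were left. The cut-off stayed at 10 there, so any region of exactly 10 factors that included Spi1 had to drop out. Their count was 7 with 10 kb either side of the gene and 5 in the gene bodies alone. It was 5 with the first 50% of each list and 0 with all lists cut to the length of the shortest. The 11 regions fell in the loci of 5 of 10 genes, against 17.4% of all genes. Of the long loci 27.9% had such a region, as did 3 of the 5 long loci among the 10 genes.

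The 11 regions with 10 or more factors shared a common core. Cebpa, Cebpb, Fli1, Lmo2, Runx1 and Tal1 were in all 11, and Erg, Lyl1 and Spi1 in 10 each. Gfi1 and Meis1 were in 8 each, Gfi1b in 7 and Gata2 in 1. A region with 10 or more of 13 lists must hold most of them, so these counts describe which lists were missing and are no measure of preference. Spi1, with the longest list, was missing at Mllt3. Meis1 was missing from the Slamf1 region and from the Cd34 regions upstream of and above the gene, and was present in both regions inside Cd34. Except at Mllt3 and in the 13-factor region of Msi2, all midpoints of a region fell within 284 bp. In both regions inside Cd34, Meis1 lay farthest out, 107 and 142 bp below the median midpoint, while Tal1, Lmo2 and Lyl1 lay within 32 bp of it. Gfi1 and Gfi1b had the same midpoint in the 13-factor region of Msi2, 123 bp above the median, and were 62 and 61 bp below it in the Cd34 region at 7.80 kb. In the Mllt3 region they differed, with Gfi1 310 bp and Gfi1b 35 bp above the median.

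**Figure D5:**
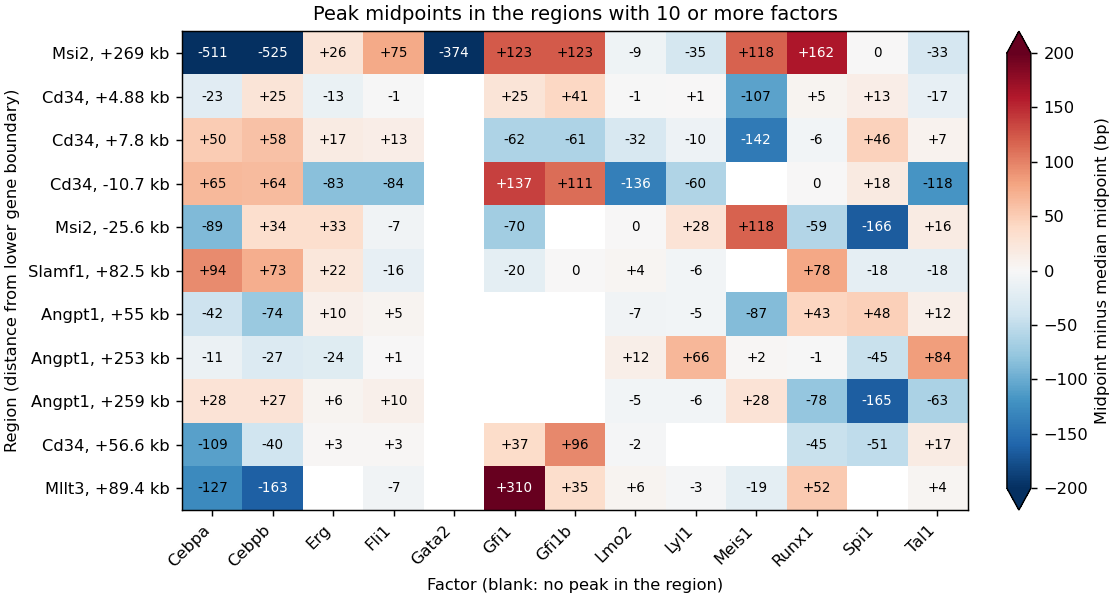
Distance of each factor's peak midpoint from the median midpoint, in bp, in the 11 merged regions with 10 or more factors, with blank cells where a factor had no peak. Cebpb, Cebpa and Gata2 lie 525, 511 and 374 bp below the median in the 13-factor region of Msi2, and the Gata2 column is otherwise empty.

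Other genes of stem and multipotent progenitor cells were taken as a list of 32. Of these 15 (46.9%) had 11 or more factors in the locus, against 33.2% of all genes, and 9 (28.1%) had 5 or fewer, against 30.6% of all genes. A region with 10 or more factors stood in 7 of the 32 loci, or 21.9%, against 17.4% of all genes. The list's median was 10 factors and 20.1 peaks per 100 kb. Adgrg1, an adhesion receptor, had all 13 factors and 161 peaks, or 115 per 100 kb, and Hmga2, a chromatin protein, had 13 factors and 66 peaks. Etv6, an ETS repressor, had 12 factors and 157 peaks. At the other end, Tek, the receptor for Angpt1, had 3 peaks of 3 factors, against 111 peaks of 11 factors at Angpt1 itself. Gprasp1 had 3 peaks of 3 factors and the zinc finger gene Zfp521 had 2 peaks of 2.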

How the data were processed

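Per the labels, Hoxb8-FL chromatin was fixed for 10 min, sonicated and precipitated, with 1 library per factor. The formaldehyde concentration used for each factor (0.4% or 1%) is not stated. The submitters' processing notes name Bowtie2, MACS2 and bedtools and the builds mm10 and GRCm38. Their versions, the threshold for calling and the control used in it were not given in the sources used here. In 3 columns the deposited files give peak positions and no score. Depth and threshold change which peaks are listed, and the common width of 400 bp limits how far apart merged midpoints lie.

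Only the 19 autosomes and chromosome X were used, so 3 lines were dropped. Coordinates count from 1. Gene boundaries came from a RefSeq table (GRCm38.p6), which has no exons, so a position within a gene was not assigned to an exon, intron or untranslated region. Start sites came from the RefSeq promoter table. "Below" and "above" mean lower and higher coordinates. Neighbouring genes can share peaks of a locus. Merging and counting used Python 3.11.15 and numpy 2.4.6. The merging was tested on simulated data, and the counting per locus was not. Shares have exact Clopper-Pearson 95% intervals (scipy 1.17.1), which cover counting error only.

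All 10 genes were named, with each gene's most shared region, every region with 10 or more factors and the peaks nearest to a start site or boundary. Of the other stem cell genes, the 3 with the most and the 3 with the fewest factors were named, with ties broken by more peaks at the upper end and fewer at the lower. Further regions were chosen after their values were seen. The genes and lists were chosen with earlier results of these data known. Alternatives changed the locus, the merging and the length of the lists.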

Additional observations from a re-analysis of the deposited data

How the results depend on the processing

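Of 130 combinations of factor and gene 103 had a peak, and 60 had one when each list was cut to its first 3217 lines, the length of the shortest. The number also depended on the locus. It was 80 with 10 kb either side, 73 with the gene body alone, 86 with peaks nearest to the gene only and 109 with 100 kb either side. With the first 50% of each list it was 89. Merged regions numbered 225, and 144 with the gene body alone, 126 with the first 50% of each list, 44 with lists cut to the shortest and 147 without the Spi1 list. Regions with 10 or more factors numbered 11, and 7 with 10 kb either side and 5 with the gene body alone. They numbered 5 with the first 50% of the lines and 0 with lists cut to the shortest. Without the Spi1 list there were 7, with the cut-off kept at 10. The median number of factors per locus was 12, and 6.5 with lists cut to the shortest. It was 8.5 with 10 kb either side, 8 with the gene body alone, 10 with peaks nearest to the gene only and 12 with 100 kb either side. Peaks per 100 kb over all 10 loci together were 20.1, and 17.1 with peaks nearest to the gene only, 11.5 with the first 50% of the lines, 3.79 with lists cut to the shortest and 15.5 without the Spi1 list. The meaning of the line order is not stated, so it is not known whether shortened lists act as a stricter threshold. Of the 120 peaks in the 11 regions with 10 or more factors, 98 (81.7%) stood in the first 50% of their lists.

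Per gene, the number of factors in the locus stayed within 1.5 times its value in 67 of 80 recomputations and the most shared region in 56 of 60. These tallies are no measure of stability, because several settings could change little. Counting peaks that overlap the locus by 1 bp changed no gene. Leaving out Spi1 took 1 factor from each gene, and 100 kb either side could only add factors. A fall from 12 to 8, as at Procr with 10 kb, was still within 1.5 times. Slamf1 had 12 factors with 50 kb either side and 2 with 10 kb. Hlf had 11 with 50 kb and 7 with 10 kb, and Procr had 12 with 50 kb and 1 in the gene body alone. Mecom's most shared region held 2 factors with 50 kb and 5 with 100 kb. The planned search of region centres for motifs was not run because no genome sequence was used here. No paired analysis was possible because each factor has 1 library and no comparison between groups was tested. Unknown depth, 1 library per factor and peaks shared with neighbouring genes limit every count.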
